A study of Mus musculus with 4 samples.

Results

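Keratins are the intermediate filament proteins of epithelial cells, and 10 of their genes were followed here in the colon of mice with chemically induced colitis: Krt7, Krt8, Krt18, Krt19, Krt20 and Krt23 of simple epithelia, and Krt5, Krt14, Krt17 and Krt6a of basal or stressed stratified epithelia. They were taken by symbol, as every non-control probe carrying one of these names, which gave 11 probes for 10 of the 37074 gene names on the array. Total RNA of whole colon from C57BL/6 mice was labelled with Cy3 and hybridised to one-colour Agilent arrays. The mutant mice (Junb fl/fl Cd4-Cre, 2 arrays) carried floxed Junb alleles and a Cre driven by Cd4, which acts in the T cell lineage and not in epithelium, and the control mice (Junb fl/fl, 2 arrays) carried the same alleles without Cre. Both groups drank dextran sulphate sodium (DSS), an agent toxic to the epithelium of the large bowel, and the tissue was taken on day 5, so that all values are from colon under DSS. The labels do not say whether an array holds the RNA of 1 mouse or of pooled mice. JunB, an AP-1 protein, regulates transcription. The submitters stated that DSS colitis was worse in the mutants, and asked how the colon transcriptome differs.

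Keratin filaments are built from pairs of one type I and one type II protein. In the colon the type II keratin 8 pairs with the type I partners encoded by Krt18, Krt19 and Krt20, and this network carries mechanical load and protects the cell under stress. Mice without keratin 8 develop colitis of their own. Keratins 5 and 14 form the filaments of basal cells in stratified epithelia such as skin, and keratins 6a and 17 appear in skin when it is wounded.

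The log2 signals below are the processed signal of a probe minus the 75th percentile of its array, so a value of 0 lies at that percentile and a difference of 1 is a doubling. Levels of different probes were not set against each other as amounts of RNA. No spot was saturated, and of 56605 probes 27940 to 29091 per array exceeded the background clearly. All 4 arrays were scanned together on 1 slide. Pearson's r of 2 arrays ranged from 0.976 to 0.984 (19326 genes), lowest for the 2 controls. The labels do not state sex. Xist, transcribed from the inactive X chromosome, stood at -0.77 and -0.55 (log2) on the replicate 1 arrays of mutant and control, and -6.43 and -6.13 on the replicate 2 arrays, so the replicate 1 arrays are called female and the replicate 2 arrays male below. Junb itself stood at 4.44 and 4.47 (log2) in the mutants and 4.23 and 4.39 in the controls (difference 0.15 ± 0.11, SE, limma adjusted p = 0.691), which does not check a deletion confined to T cells. In bulk tissue, fewer cells of a type and less RNA per cell cannot be told apart.

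The measurements rest on probes of 60 bases. The probes of Krt7, Krt18 and Krt19 are shown as deposited, 5′ to 3′, because they carry the results for the simple keratins that differed least. The capitals in the Krt18 probe mark the stop codon that ends the longest open reading frame in it, at base 50, with 8 bases after it.
Krt7: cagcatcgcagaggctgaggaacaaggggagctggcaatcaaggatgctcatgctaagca
Krt18: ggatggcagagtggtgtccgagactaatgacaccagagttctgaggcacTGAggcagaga
Krt19: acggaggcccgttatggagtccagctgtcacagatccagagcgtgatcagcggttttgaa
On mm9 these probes lie at chr15:101253718-101253777 on the plus strand, chr15:101862341-101862400 on the plus strand and chr11:100002392-100002451 on the minus strand. In an ungapped comparison, the 11 probes shared between 24 and 27 bases at best with a probe of another keratin gene among the 68 keratin probes of the array. Probes were compared with probes only, so this does not check whether a probe matches the transcript of another keratin. The genes lie in the type I and type II keratin clusters, 5 on chromosome 11 and 5 on chromosome 15. Krt8 and Krt18, partners in the filament and of opposite type, are direct neighbours on chromosome 15, as are Krt6a and Krt5, and Krt20 and Krt23 are neighbours on chromosome 11.

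Of the 10 keratins, 9 were well above background on all 4 arrays and were tested, and Krt5 was so on none. None of the 9 passed a Benjamini-Hochberg adjusted p of 0.05 over 19326 genes (limma, smallest adjusted p = 0.513), and neither did any other gene (0% called, smallest adjusted p = 0.373). The size of the difference went with the signal of the probe. The keratins of the colonocyte (Krt8, Krt18, Krt19, Krt20) and Krt7 differed by at most 0.15 on the log2 scale (SE 0.11 to 0.14). Krt17, Krt23 and Krt14 were lower and Krt6a higher by 0.36 to 0.81 in size (SE 0.20 to 0.29). Group means of the former lay between 2.80 and 8.19 (log2), and those of the latter, dimmer and less precise, between -2.78 and 0.85. The median absolute difference over all genes was 0.17. At an unadjusted p under 0.05, 1 keratin was higher (Krt6a) and 1 lower (Krt17), where 5.31% of all genes were higher and 3.98% lower (9.29% in all). In the fit by probe 2 of the 10 tested keratin probes passed it, against 8.22% of all probes. No keratin differed 2-fold at that threshold, as 1.36% of all genes did. The groups did not overlap for 7 of the 9 tested keratins, against 43.2% of all genes tested: 4 were higher (25.7% of all genes) and 3 lower (17.6%). The median difference of the 9 was -0.02, against 0.02 over all genes.

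**Figure D1:**
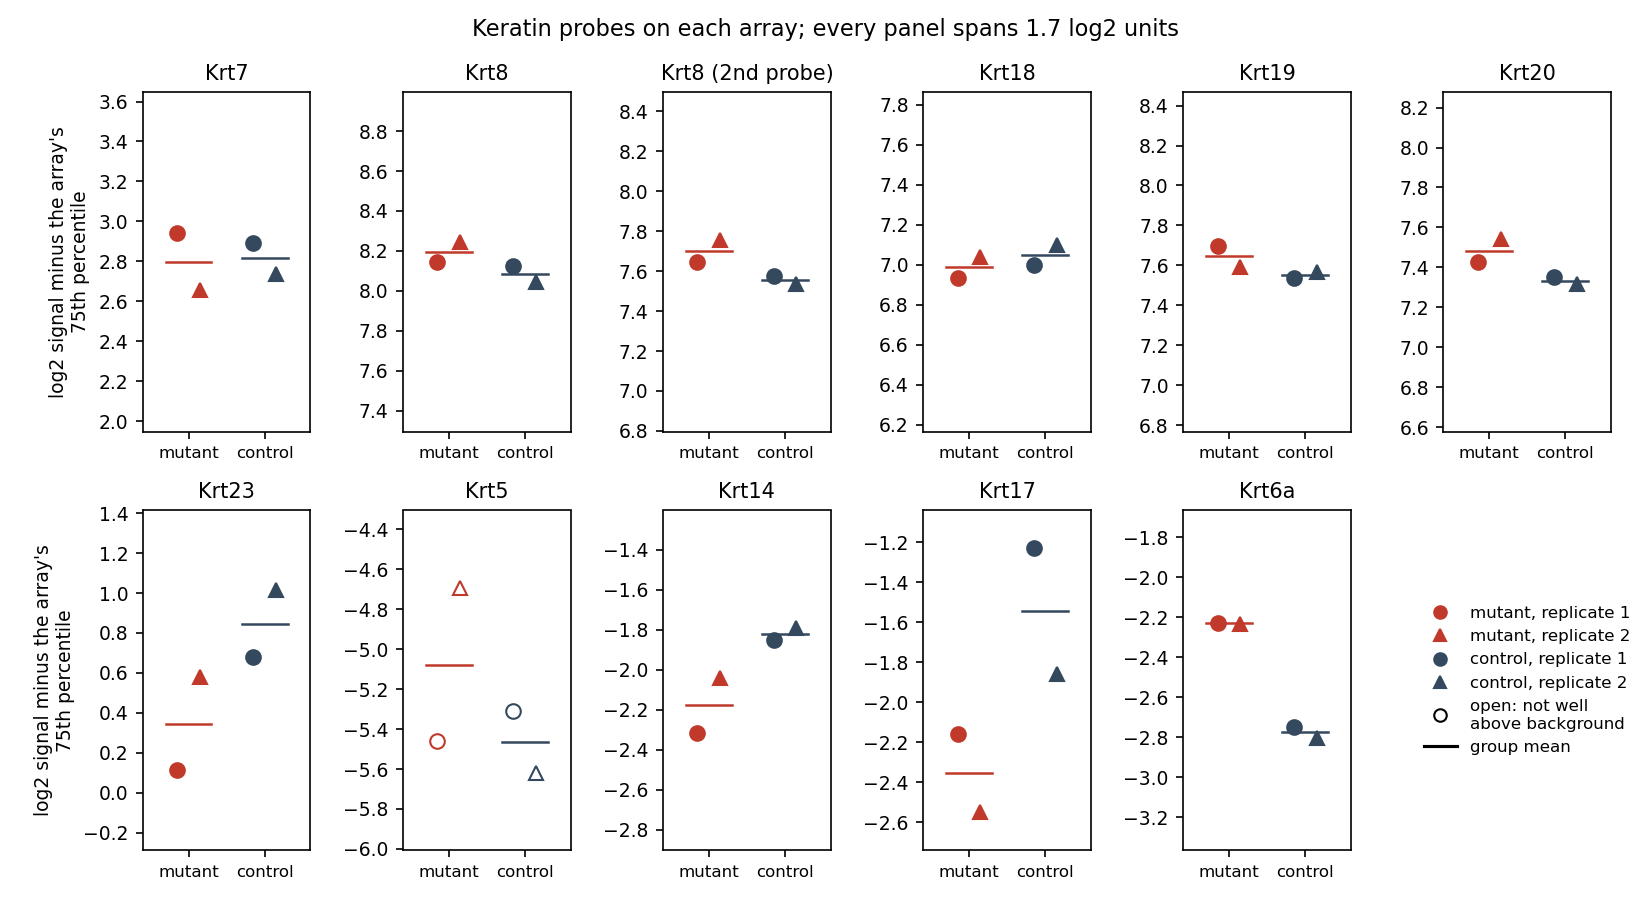
Log2 signal of each keratin probe, relative to the 75th percentile of its array, on the 2 mutant and 2 control arrays, with the group mean as a line. All panels have the same span. The arrays of Krt8, Krt18, Krt19 and Krt20 lie within 0.23 of each other, the groups of Krt23, Krt14, Krt17 and Krt6a stand apart, and Krt5 did not clear the background (open symbols).

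Krt8, the type II keratin of the simple epithelial filament, stood at 8.14 and 8.24 (log2) in the mutants and 8.13 and 8.05 in the controls. The groups did not overlap, but the lower mutant lay only just above the higher control. The difference was 0.11 ± 0.11 (SE, n = 2 and 2, limma adjusted p = 0.777), and its 95% interval ran from a 0.888-fold to a 1.31-fold level in the mutants. The other Krt8 probe, 16 bases further along the transcript, had 7.65 and 7.76 in the mutants and 7.57 and 7.54 in the controls, a difference of 0.15 ± 0.11 in a fit with each probe as its own row. Both probes gave the same direction and a like size. Before any scaling, the intensity of the brighter probe was 87925 and 81426 in the mutants and 92162 and 86886 in the controls, while the 75th percentile of all spots was 310.9 and 268.5 in the mutants and 330.0 and 328.6 in the controls. The direction of the Krt8 difference therefore rests on the scaling: it was -0.02 after quantile normalization, -0.01 relative to pan-epithelial genes and -0.08 with no scaling.

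Krt18, the usual type I partner of keratin 8, had 6.9318 and 7.0416 in the mutants and 6.9997 and 7.0980 in the controls on the log2 scale. The groups overlapped, and the difference was -0.06 ± 0.11 (adjusted p = 0.880) with a 95% interval of 0.790-fold to 1.16-fold. It was -0.28 ± 0.06 after quantile normalization (unadjusted p = 0.00788, adjusted p = 0.435), -0.18 relative to pan-epithelial genes and 0.02 with median scaling.

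Krt19, a type I keratin of crypt and surface cells, had 7.70 and 7.59 in the mutants and 7.54 and 7.57 in the controls. Both mutants lay above both controls, with a difference of 0.09 ± 0.11 (adjusted p = 0.807, 95% interval 0.883-fold to 1.28-fold). Krt20, a type I keratin of differentiated cells at the surface of the gut, had 7.43 and 7.54 in the mutants and 7.35 and 7.32 in the controls. Both mutants were again above both controls, and the difference was 0.15 ± 0.11 (adjusted p = 0.676, 95% interval 0.919-fold to 1.34-fold). As for Krt8, these directions turned after quantile normalization (-0.07 for Krt19 and -0.01 for Krt20) and with no scaling (-0.10 and -0.04). Relative to pan-epithelial genes, Krt19 was at -0.03 and Krt20 at 0.03.

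Krt7, a type II keratin typical of ducts and glands, had 2.94 and 2.65 in the mutants and 2.89 and 2.74 in the controls. The 2 mutants enclosed the 2 controls, and the difference was -0.02 ± 0.14 (adjusted p = 0.975, 95% interval 0.769-fold to 1.27-fold). It was 0.05 between the female mice and -0.08 between the male mice. Without mutant replicate 2 the difference was 0.13, and without control replicate 1 it was 0.06. Any fit without 1 array leaves a group with a single sex, so its difference mixes genotype with sex. For the 5 simple keratins other than Krt23, the intervals left room for changes of up to 1.34-fold upward. None of their differences passed the unadjusted threshold, against 9.29% of all genes, which for so few genes sets them apart in no way.

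Krt23, a type I keratin first described in pancreatic cancer cells, stood apart from the other simple keratins. The log2 signal was 0.11 and 0.58 in the mutants and 0.68 and 1.01 in the controls. Both mutants lay below both controls, although the distance between the replicates was of the order of the difference itself. Krt23 was 1.42-fold lower in the mutants (-0.50 ± 0.21, unadjusted p = 0.0638, adjusted p = 0.565), with -0.57 between the female and -0.43 between the male mice. The difference was -0.27 without mutant replicate 1, -0.73 without mutant replicate 2, -0.67 without control replicate 1 and -0.34 without control replicate 2. The female array was lower than the male array in both genotypes, so these fits mix genotype with sex. With all 4 arrays, the difference was -0.62 with pan-epithelial scaling (unadjusted p = 0.0193) and -0.69 with no scaling (0.0111). Its neighbour on chromosome 11, Krt20, had a difference of 0.15.

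Krt17, a type I keratin induced in wounded and inflamed skin, showed the largest difference of the family. It had -2.16 and -2.55 in the mutants and -1.23 and -1.86 in the controls on the log2 scale. Both mutants lay below both controls, and the controls were further apart than the mutants (SD 0.44 against 0.28 in the mutants). Krt17 was 1.76-fold lower in the mutants (-0.81 ± 0.29, unadjusted p = 0.0378, adjusted p = 0.513), with a 95% interval of 0.340-fold to 0.954-fold. The difference was -0.93 between the female and -0.69 between the male mice. It was -1.01 without mutant replicate 1, -0.62 without mutant replicate 2, -0.50 without control replicate 1 and -1.13 without control replicate 2. The female array was higher than the male array in both genotypes, so these fits mix genotype with sex. After normexp background correction, which shrinks differences of dim probes by construction, the difference was -0.39. Without the filter on dim probes the unadjusted p was 0.0662.

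Krt14, the type I keratin of basal cells, had -2.31 and -2.04 in the mutants and -1.85 and -1.79 in the controls. Both mutants were lower, with a difference of -0.36 ± 0.20 (unadjusted p = 0.135, adjusted p = 0.624). It was -0.46 between the female and -0.25 between the male mice, -0.22 without mutant replicate 1 and -0.19 after normexp correction. Krt5, the type II partner of Krt14 in basal cells, had -5.46 and -4.69 in the mutants and -5.31 and -5.62 in the controls, below the level of every spot counted as well above background. Krt14 was thus measured without its basal partner. Krt16, which lies between Krt14 and Krt17 on chromosome 11 and pairs with keratin 6 in wounded skin, differed by -0.04 ± 0.21 and its groups overlapped.

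Krt6a, a type II keratin of wounded and hyperproliferative epithelium, was the only one of the 3 tested basal and stress keratins followed here with a higher level in the mutants. Its log2 signal was -2.23 and -2.23 in the mutants and -2.75 and -2.80 in the controls. Replicates of a group differed by far less than the groups (SD 0.0026 in the mutants and 0.038 in the controls). Krt6a was 1.46-fold higher in the mutants (0.54 ± 0.21, unadjusted p = 0.0446, adjusted p = 0.526), with a 95% interval of 1.01-fold to 2.10-fold, and the difference was 0.52 between the female and 0.57 between the male mice. The intensities behind it were low, 66.3 and 57.1 in the mutants and 49.1 and 47.1 in the controls. After normexp correction the difference was 0.32. Without any 1 array the difference stayed between 0.52 and 0.57, but the unadjusted p was then between 0.0839 and 0.170. It was 0.101 with pan-epithelial scaling (difference 0.42), 0.189 with no scaling (0.36) and 0.126 without the filter on dim probes. Krt6b, its close relative, differed by 0.30 ± 0.36.

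**Figure D2:**
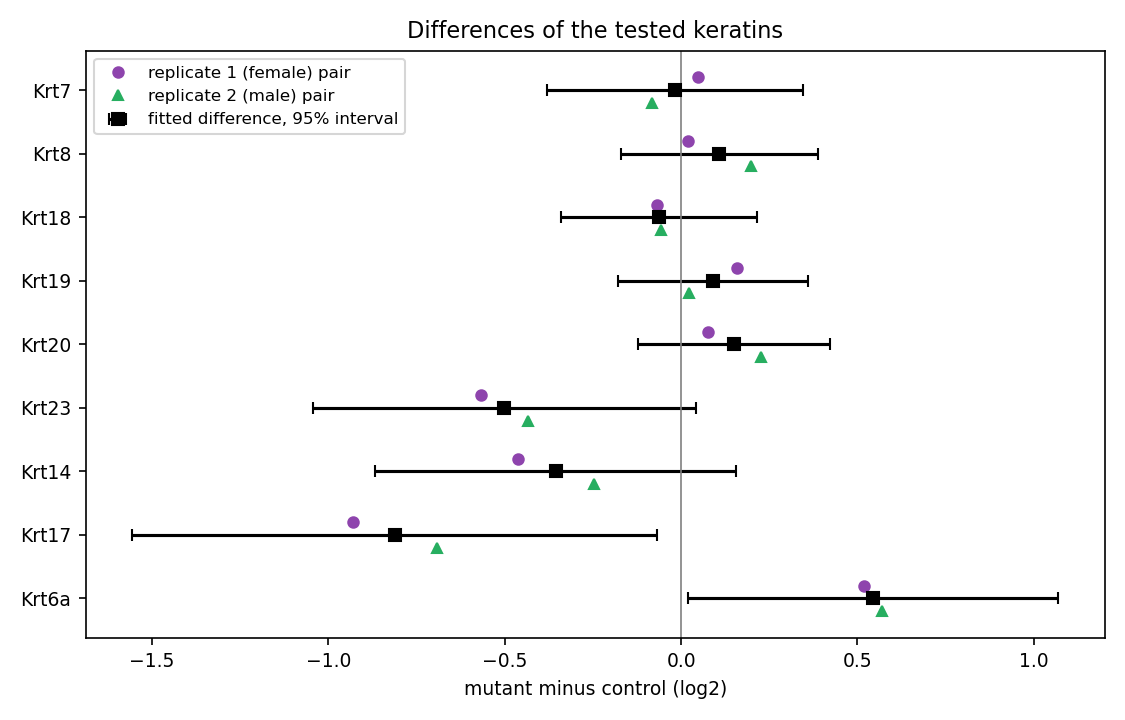
Difference of each tested keratin, mutant minus control on the log2 scale, as the fitted value with its 95% interval (squares) and within the female and the male mice (circles and triangles). The intervals of Krt17 and Krt6a leave out 0 before adjustment for multiple tests, and the female and male mice gave the same sign for every keratin shown except Krt7.

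The direction within female and within male mice agreed for 8 of the 9 tested keratins, against 65.4% of all genes tested. With 2 arrays per group, an exact permutation test of a single keratin cannot go below p = 0.333 (two-sided), so the tests rest on the spread shared across genes. The p-values rest on 2 arrays of each genotype and cover the spread between those. By Xist, the 2 arrays of a genotype are 1 female and 1 male, so this spread includes any difference between the sexes. The fit with the replicate number as a block is given at the end.

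The genes most like the keratins that varied most, Krt17 and Krt23, were sought by the root mean square difference of the centred log2 signals over the 4 arrays, as a description. For Krt17, 19 genes lay within 0.1. The 5 nearest included Vstm5 (0.0451), Sprr2a1, a cornified envelope gene (0.0701), and Cyp2d22 (0.0719), and the other two carried no gene symbol. For Krt23, 216 genes lay within 0.1, and Ebf3 (0.00693), Gap43, a growth cone protein of neurons (0.0165), Eva1c (0.0223) and Tmtc1 (0.0226) were among the 5 nearest. With 4 arrays many genes share such a pattern.

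Of 26 other keratins, 11 passed the filter on dim probes (4 higher, 7 lower, median -0.04). None passed the unadjusted threshold, against 9.29% of all genes, which for so few genes sets them apart in no way. The smallest p were those of the hair keratin gene Krt84 (-0.58 ± 0.30), Krt79 (-0.29 ± 0.25) and Krt2, a keratin of upper epidermis. Krt2 was well above background in the mutants only and passed the filter through them, so its difference is not given, although it counts among the 4 higher. Krt4, Krt74 and Krt36, named after their values were seen, varied between arrays of a group far more than the keratins above. Krt4, a keratin of stratified mucosa, had -1.67 and -6.35 in the mutants and -3.50 and -6.04 in the controls. It was well above background in the female mice of both genotypes and not in the male mice. In the female control it lay near the lowest signal counted as such on that array (-3.99). Krt74 had the same order, with -2.60 and -6.41 in the mutants and -3.50 and -5.46 in the controls. Krt36 had -0.34 and -1.98 in the mutants and -1.43 and 0.07 in the controls. Hoxb13, a gene of the most distal colon, had 4.43 and 1.56 in the mutants and 4.82 and 3.52 in the controls, also higher in the female mice. Whether the stretch of colon sampled has a part in the keratin values was not tested.

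**Figure D3:**
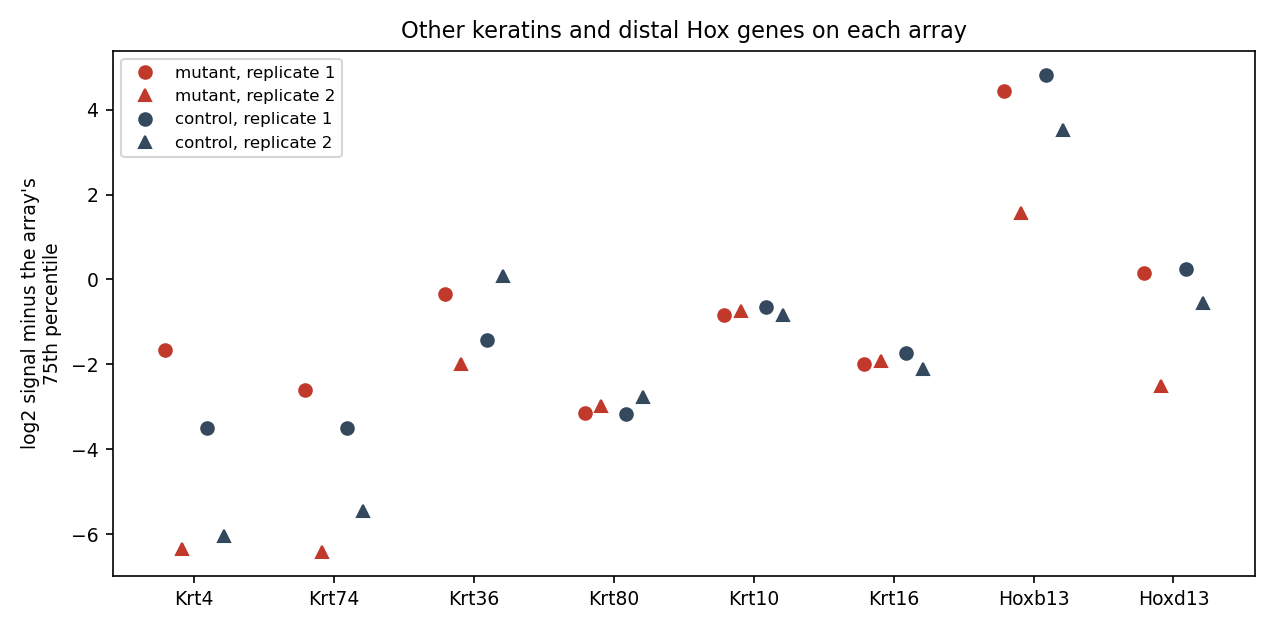
Log2 signal of 6 other keratins and of the distal genes Hoxb13 and Hoxd13 on each array, relative to the 75th percentile of the array. Krt4 and Krt74 are highest on the replicate 1 arrays of both genotypes, which are the female mice, while the arrays of Krt10 lie within 0.20 of each other.

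All 15 listed genes of keratin filament partners, most of them proteins of desmosomes and hemidesmosomes, were tested (median 0.08, 11 higher and 4 lower). The unadjusted threshold was passed by 1 of the 15, against 9.29% of all genes. That gene was Pkp1, a desmosomal plaque protein, with 1.66 and 1.45 in the mutants and 0.98 and 1.06 in the controls (0.54 ± 0.13, unadjusted p = 0.00886, adjusted p = 0.418). The desmosomal cadherin gene Dsc2 differed by 0.31 ± 0.13 and the hemidesmosomal integrin gene Itga6 by 0.25 ± 0.15, although the 5 probes of Itga6 ranged from -0.24 to 0.25 in difference. Desmoplakin (Dsp), which ties keratin to the desmosome, differed by 0.13 ± 0.13. Among 12 other intermediate filament genes, 1 was higher and 2 lower at the unadjusted threshold, against 5.31% and 3.98% of all genes. Lmnb1, a nuclear lamin, was 2.35-fold higher in the mutants (1.23 ± 0.12, adjusted p = 0.373), and the muscle filament genes Des (-0.66 ± 0.12) and Synm (-0.60 ± 0.17) were lower.

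**Figure D4:**
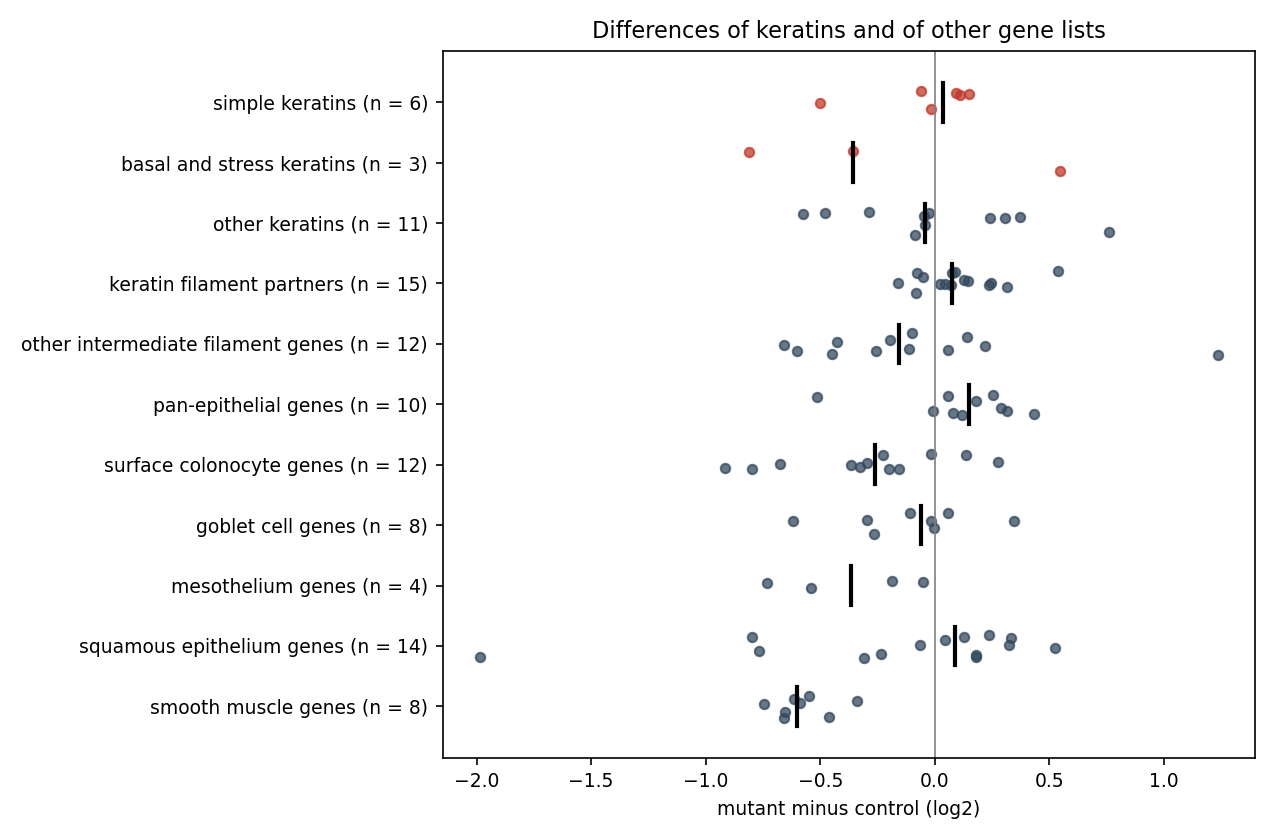
Differences, mutant minus control on the log2 scale, of the tested members of each gene list, with the median as a bar. The simple keratins other than Krt23 lie close to 0, the stress keratins lie on both sides, and all smooth muscle genes lie below 0. Krt2, Krtdap and Upk3b are included, although each passed the filter only through the group where it is higher.

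Markers of the cells that could contribute keratin transcripts were measured beside them. The tissue carried its epithelial markers: 10 pan-epithelial genes were tested, with a summed linear level of 388 and 422 in the mutants and 356 and 356 in the controls. Their median difference was 0.15. Beside it, Krt8, Krt19 and Krt20 stood at 0.11, 0.09 and 0.15, and Krt18, Krt7 and Krt23 at -0.06, -0.02 and -0.50. Among the pan-epithelial genes, Cdx2 (0.43 ± 0.13), Cldn7 (0.32 ± 0.11) and Elf3 (0.25 ± 0.10) had the smallest p. Of the 10, 8 were higher and 2 lower, Cldn4 (-0.51 ± 0.25) and Cdh1 (-0.01 ± 0.11). When the arrays were scaled on these genes, the median of all genes moved by -0.12. Genes of surface colonocytes went the other way in 10 of 12 cases (median -0.26, summed level 768 and 963 in the mutants and 959 and 1028 in the controls), with Cyp2c55 at -0.92 ± 0.24, Aqp8 at -0.68 ± 0.26 and Slc20a1 at -0.80 ± 0.34, none past the adjusted threshold. Goblet cell genes had a median of -0.06, with Fcgbp lower (-0.62 ± 0.12), Zg16 at -0.30 and Tff3 at -0.26. Of 8 goblet cell genes 6 were lower and 2 higher, Retnlb (0.34 ± 0.32) and Agr2 (0.06 ± 0.11).

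Genes of squamous epithelium, which expresses Krt5, Krt14, Krt6a and Krt17, were measured in part. Of 24 squamous genes 14 were tested, and Ivl, Sprr3, Crnn, Calml3 and Spink5 were among the 10 that were not. Krtdap, among the 14, was well above background in the mutants only and passed the filter through them. The summed level was 157 and 148 in the mutants and 146 and 143 in the controls, over all tested members. Most of that sum came from Sfn (log2 6.53 and 6.42 in the mutants, 6.35 and 6.35 in the controls) and Perp. Perp had 5.57 and 5.63 in the mutants and 5.50 and 5.61 in the controls. The sum therefore mainly follows these 2 genes and is not a level of squamous epithelium. Trp63, a transcription factor of basal cells, had 2.02 and 2.13 in the mutants and 2.01 and 1.79 in the controls on the log2 scale. This was the only tested probe of its 4. Ly6d differed by 0.18 ± 0.13. The desmosomal cadherin genes Dsc3 (-0.06 ± 0.17) and Dsg3 (0.24 ± 0.31) were also well above background on all 4 arrays. Lor differed by -0.80 ± 0.30, Sprr2a1 by -0.77 ± 0.32, Sprr1a by 0.32 ± 0.18, Tgm3 by -1.99 ± 1.40 (its other probe by -0.02) and Tgm1 by 0.53 ± 0.54. Lor was well above background on 1 mutant and 2 control arrays, and Tgm1 on 1 array of each group. Mesothelium, the lining of the outer gut wall, also expresses simple keratins. Of 8 mesothelial genes listed 4 were tested, with a summed level of 1.35 and 1.25 in the mutants and 1.57 and 1.51 in the controls. Wt1 was at -0.54 ± 0.19, Msln at -0.19 ± 0.13 and Upk1b at -0.05 ± 0.18. Upk3b was well above background in the controls only and passed the filter through them, although it counts in the summed level. Smooth muscle genes were lower in 8 of 8 cases (median -0.60, summed level 285 and 273 in the mutants and 369 and 405 in the controls), including Acta2 (-0.59 ± 0.12) and Myh11 (-0.61 ± 0.12). Distal Hox genes had a median of -0.51 over 8 tested genes (2 higher, 6 lower). Hoxb13 differed by -0.40 between the female and -1.96 between the male mice, and Hoxd13 by -0.10 and -1.96. The groups of Hoxb13 and of Hoxd13 overlapped. Leukocyte genes had a median of 0.02 (4 higher, 4 lower), with S100a8 2.24 ± 0.78 and S100a9 2.24 ± 0.88 higher. Of 8 pancreatic genes 2 were tested and neither passed the unadjusted threshold, against 9.29% of all genes, which for so few genes says nothing about them. The part of these cells in the values of Krt17, Krt23, Krt14 and Krt6a was not tested.

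**Figure D5:**
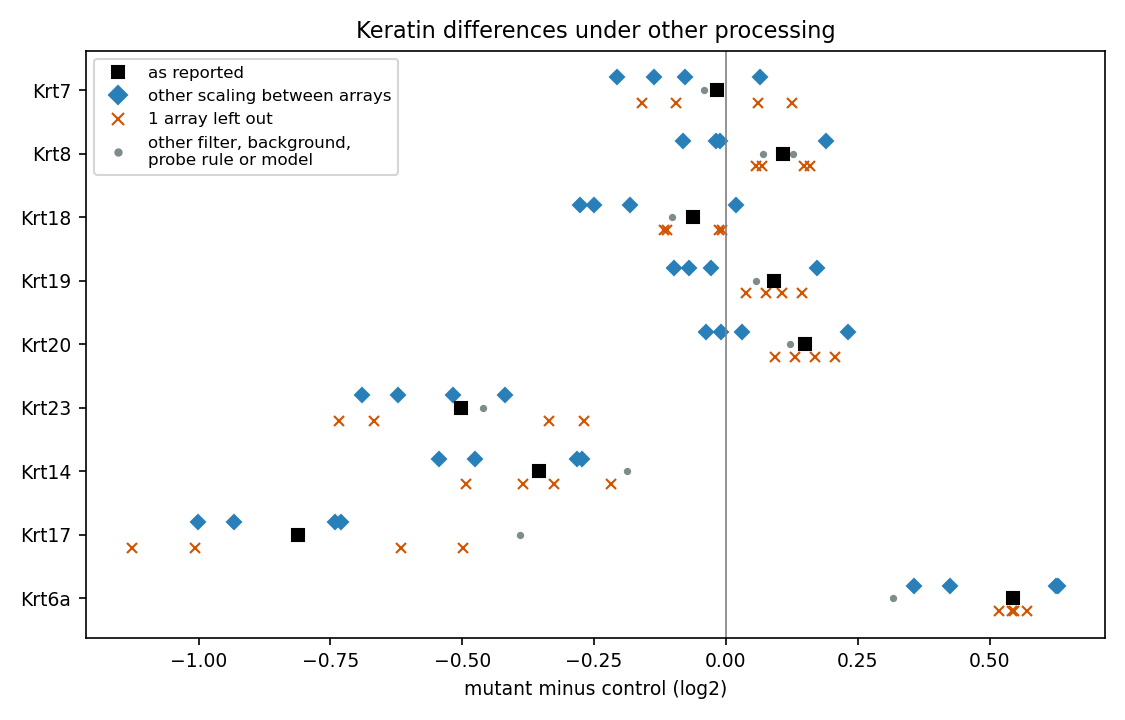
Difference of each tested keratin, mutant minus control on the log2 scale, as reported (squares) and under other scalings (diamonds), without 1 array (crosses) and under other filters, background correction, probe rule or model (dots). Krt14, Krt17, Krt23 and Krt6a keep their sign under every setting shown, while Krt7, Krt8, Krt18, Krt19 and Krt20 lie on both sides of 0.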

How the data were processed

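The authors deposited scanner output of Agilent Feature Extraction 11.5.1.1 with linear spot intensity values, background-corrected per array and without normalization between arrays, per the file headers. The submitters' processing notes name the same software. The deposited yes or no flags for background, saturation and outliers were used as such. The depth of the measurement is set by signal over background and by the number of arrays.

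The log2 of the processed signal minus the array's 75th percentile over non-control spots was taken. Spots with outlier flags were dropped before averaging, which cost 11 probes. A probe had to be well above background on at least 2 arrays, and the brightest one stood for its gene (19326 genes, of which 14436 names matched a RefSeq table of assembly GRCm38.p6, used for names and gene order only). The files give probe coordinates on mm9. Mutant minus control differences come from limma 3.58.1 under R 4.3.3, using lmFit and a trended eBayes without a block, with two-sided p and the moderated SE. The fit was tested on simulated data.

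The keratins, the gene lists and the alternatives were chosen with earlier results of these data known. The genes named are all 10 keratins, up to 3 genes of each list by smallest p, up to 3 by widest range for the squamous, mesothelium, pancreatic, distal Hox and sex-linked lists, and the 5 genes most like each of the 2 keratins that varied most. Krt16, Krt6b, Krt4, Krt74, Krt36, Krt10, Krt80, Dsp, Trp63, Ly6d, Dsc3, Dsg3, Sfn, Perp, Krtdap, Cldn4, Cdh1, Retnlb, Agr2 and Upk1b fall outside this rule and were named after their values were seen. Alternatives changed the scaling, background correction, filter, probe rule, trend, replicate block and each array in turn, and analysis without scaling was added after the data were seen.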

Additional observations from a re-analysis of the deposited data

Results flagged for a closer look

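Among the tested keratins and the genes chosen by rule, 5 differed between mutant and control in opposite directions in the female and the male mice. With 1 array per sex and genotype, these differences between the sexes were not tested. Krt7 differed by 0.048 between the female and by -0.081 between the male mice, both smaller than its standard error of 0.14. Hoxd12 differed by 0.56 and -2.35, and was well above background on 1 array of each group. Lgals7, a squamous gene, differed by 5.46 and -6.08, since it was high on mutant replicate 1 and control replicate 2 (-0.10 on each) and not well above background on the other two. The pancreatic genes differed by 1.12 and -1.29 (Cela2a) and by 0.36 and -0.64 (Ctrb1), and both were well above background on 2 mutant arrays and 1 control array. Of the genes named after their values were seen, the same held for Krt36 (1.098 and -2.06), Krt4 (1.83 and -0.31), Krt74 (0.90 and -0.96), Krt16 (-0.26 and 0.18), Krt10 (-0.19 and 0.09), Krt80 (0.03 and -0.21), Dsp (-0.06 and 0.31), Dsg3 (-0.01 and 0.48) and Cdh1 (-0.08 and 0.06).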

How the results depend on the processing

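No keratin passed the adjusted threshold under any of the 14 alternatives, and no keratin probe did under the 6 alternatives fitted by probe. Krt14, Krt17, Krt23 and Krt6a kept their direction in all 14. With other scalings, Krt18 was at 0.020 (median scaling), Krt7 at 0.065 (median scaling), Krt19 at -0.070 (quantile), -0.029 (pan-epithelial) and -0.098 (no scaling), Krt20 at -0.0092 (quantile) and -0.039 (no scaling) and Krt8 at -0.020 (quantile), -0.012 (pan-epithelial) and -0.081 (no scaling). Without 1 array, Krt7 ranged from -0.16 to 0.13, with 0.13 without mutant replicate 2 and 0.061 without control replicate 1. The median of all genes moved by -0.12 (pan-epithelial), -0.19 (no scaling), 0.08 (median scaling) and only -0.02 (quantile), and the cause of the quantile reversals was not tested. Among genes past the unadjusted threshold, 57.1% were higher in the mutants as reported, against 49.0% after quantile normalization, 71.0% with median scaling, 23.1% with pan-epithelial scaling, 35.8% with dim probes kept and 11.49% with no scaling. The median of the simple keratins was -0.074 (quantile), 0.12 (median scaling), -0.083 (pan-epithelial) and -0.15 (no scaling), and 0.016 to 0.076 without 1 array. That of the basal and stress keratins, 3 genes, was -0.19 (normexp), -0.28 (quantile), -0.27 (median scaling), -0.48 (pan-epithelial), -0.54 (no scaling) and 0.016 without the filter on dim probes, which adds Krt5, and -0.49 to -0.22 without 1 array. Of 19326 genes, 1796 passed the unadjusted threshold as reported, 3383 with the replicate block, 1709 with quantile normalization and 2193 with no scaling. Without the filter on dim probes 3607 of 37066 genes did. The unadjusted threshold was passed by 2 keratins as reported, by 3 with the replicate block (Krt17, Krt23, Krt6a), with quantile normalization (Krt17, Krt18, Krt6a) and with no scaling (Krt14, Krt17, Krt23), by 0 without the filter on dim probes and by 0 to 1 without 1 array. Genes at least 2-fold different at an unadjusted p under 0.05 numbered 263 as reported, 85 with normexp, 571 without the filter, 156 with the filter on all 4 arrays and 340 to 500 without 1 array (447 without mutant replicate 2, 436 without control replicate 1, 500 without control replicate 2). The adjusted threshold was passed by 0 genes in all these fits. With the replicate number as a block, 46 genes passed it (0.238% of those tested), among them S100a9 (adjusted p = 0.0236), S100a8 (0.0408) and Lmnb1 (0.0459), and no keratin (smallest adjusted p = 0.151, Krt17). In limma with the block, Krt23 had an unadjusted p = 0.00682 (adjusted p = 0.155) and Krt17 an unadjusted p = 0.00606, at a threshold that 17.5% of all genes passed. The block leaves each difference as it is. The labels give the numbers no meaning, while Xist shows that same-numbered arrays share sex. Deviations from the group means of same-numbered arrays correlated with r = 0.239 over genes, and with 2 pairs this does not settle whether they share more than that. Krt14, Krt17 and Krt6a lie near the background, which limits their precision.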
